A study of Homo sapiens with 13 samples.

Results

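The genes described here are MACC1, the receptor tyrosine kinase genes MET, EGFR, ERBB2, ERBB3, IGF1R, INSR and MST1R, and the ligand genes AREG and EREG. They were selected by symbol, as the rows of these 10 genes among 23886 rows in each of the authors' 2 deposited tables, and all 10 were found in both. Their arm means and fold changes were known when they were selected, so their values and p-values are given as a description. The p-values do not allow for that selection.

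The cells were DLD-1, an established line from a human colorectal adenocarcinoma, and the 13 samples were RNA-seq libraries from 3 experiments. The first table sets 4 samples with an siRNA against SOX9 (siSOX9; 3 of experiment 1 and 1 of experiment 2) against 3 samples with a control siRNA (siCtrl; 2 of experiment 1 and 1 of experiment 2). The second sets 4 samples with an siRNA against Y14 (siY14; 2 samples with siRNA No9 and 2 with No10, as 1 arm) against 2 siCtrl samples, all of experiment 3. All samples were taken 72 h after transfection with 50 nM of siRNA. SOX9 encodes a transcription factor found in intestinal epithelium, and Y14, the product of RBM8A, belongs to the core of the complex that marks exon junctions on spliced mRNA. Nothing in the labels says whether the samples came from separate cultures, so the authors' p-values measure a spread between samples that may be technical.

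MACC1 (metastasis-associated in colon cancer 1) is known as an activator of MET transcription in colorectal cancer cells. MET is the receptor of hepatocyte growth factor, and MST1R (RON) is its closest relative. EGFR, ERBB2 and ERBB3 form dimers with each other: EGFR binds amphiregulin (AREG) and epiregulin (EREG), ERBB3 binds neuregulins and has little kinase activity of its own, and ERBB2 has no known ligand. IGF1R and INSR are the receptors of insulin-like growth factors and insulin. All of these receptors signal through the RAS and PI3K pathways.

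Each value is a normalised count, that is the reads of a gene over the size factor of its library. The tables hold arm means, and reads per library were recovered from their digits for 85.5% (siSOX9 table) and 89.4% (siY14 table) of genes with reads. These libraries have no sample name, and letters rank them by depth within an arm, a being the deepest. Depth was estimated at 24.8 to 184 M counts for the siSOX9 table, and for the siY14 table at 47.2 to 71.6 M. In the siSOX9 table library a stood apart in both arms, at 184 M with siSOX9 and 179 M with siCtrl, where no other library exceeded 41.7 M, and the deviations of these 2 libraries from their arms had a correlation of 0.86 over 9543 genes. Within the siY14 arm the deviations of libraries a and c had a correlation of 0.89 over 10210 genes, and those of b and d also 0.89. The points of these correlations are genes of the same libraries. The siSOX9 knockdown was visible in SOX9 itself, at a mean of 9067 normalised counts with siSOX9, against 24468 with siCtrl, by the authors' deposited table. RBM8A was listed at 0 in both tables, so that knockdown could not be checked.

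Most of the colon epithelial markers were well above the immune, fibroblast and endothelial ones. In the siSOX9 table the 10 epithelial markers summed to 319486 normalised counts with siSOX9 and 357335 with siCtrl, and in the siY14 table to 323877 with siY14 and 438426 with siCtrl. KRT8 and KRT18 made up most of these sums, at 139861 and 100292 with siCtrl in the siSOX9 table. In the same arm CDX2 was at 12082 and CDH17 at 9873, while KRT20 was at 96.8, near the immune marker CD14 at 99.9. CDX1 was near 0, at most 2.83 in any arm by the authors' deposited tables. The 6 immune markers summed to 129 to 172 over the 4 arms and the 8 fibroblast and endothelial markers to 85.2 to 175, and COL1A2, DCN, LUM, PTPRC, CD3E and PECAM1 were each below 1 in every arm. Some markers moved with the knockdowns. VIL1 fell by 1.19 and KRT20 rose by 1.15 on the log2 scale with siSOX9, as did COL1A1 by 1.28, and KRT20, CDH1, CDH17 and VIL1 fell with siY14, by 2.12, 1.21, 0.67 and 0.57. These come from arm means in the authors' deposited tables. With siY14 the recovered counts of KRT20, CDH17 and VIL1 were lower in libraries b and d than in a and c. The part of these markers in the results below was not tested.

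MACC1 had the largest difference of the 10 genes with siSOX9. Its recovered libraries held 1183, 830.0, 920 and 848 normalised counts with siSOX9 (libraries a to d), against 3396, 2494 and 2659 with siCtrl (a to c). Every siSOX9 library was below every siCtrl library, and library a was the highest within each arm. In bulk RNA, fewer cells with a transcript and less of it per cell cannot be told apart. The means were 945 ± 163 (SD, n = 4) with siSOX9 and 2850 ± 480 (SD, n = 3) with siCtrl. MACC1 was thus 3.02-fold lower with siSOX9, a log2 fold change of -1.59 at adjusted p = 3.31e-06 by the authors' deposited table. Between the 2 deepest libraries alone the log2 fold change was -1.52, and between the means of the others, 866 with siSOX9 and 2576 with siCtrl, it was -1.57. Of 12190 genes averaging at least 50, 0.172% had a log2 fold change as low as that of MACC1. The antisense gene MACC1-AS1 was listed at 0 in both tables.

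The 250 bases before the annotated start of MACC1 and of MET are shown because these were the members with the largest differences with siSOX9, and SOX proteins bind the core motif ACAAT. The sequences are from RefSeq (GRCh38.p14), on the strand of each gene, at chr7:20217385-20217634 (minus strand) for MACC1 and chr7:116671946-116672195 (plus strand) for MET. Capitals mark ACAAT on either strand, read as ATTGT on the strand shown where the motif lies on the other one.
MACC1: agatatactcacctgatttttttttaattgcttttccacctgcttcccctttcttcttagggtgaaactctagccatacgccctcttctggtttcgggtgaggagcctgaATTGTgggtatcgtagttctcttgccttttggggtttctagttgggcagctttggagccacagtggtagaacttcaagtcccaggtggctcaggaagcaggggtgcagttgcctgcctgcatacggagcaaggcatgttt
MET: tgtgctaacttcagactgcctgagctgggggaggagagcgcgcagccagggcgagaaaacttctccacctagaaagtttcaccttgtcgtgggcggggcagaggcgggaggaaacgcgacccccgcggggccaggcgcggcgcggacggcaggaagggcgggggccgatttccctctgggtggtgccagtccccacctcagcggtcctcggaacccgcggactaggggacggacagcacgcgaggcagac
MACC1 held 1 match, starting 140 bases before the gene's start, and MET held none. A promoter sequence was found for 9 of the 10 genes, and MACC1 was the 1 with a match. Of 27305 promoters of the same length, 25.2% held the motif. The 2 windows also differ in base composition, with 49.2% G and C and 4 CpG dinucleotides for MACC1, and 68.4% and 24 for MET. A match of this length is a description and does not show a binding site.

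**Figure D1:**
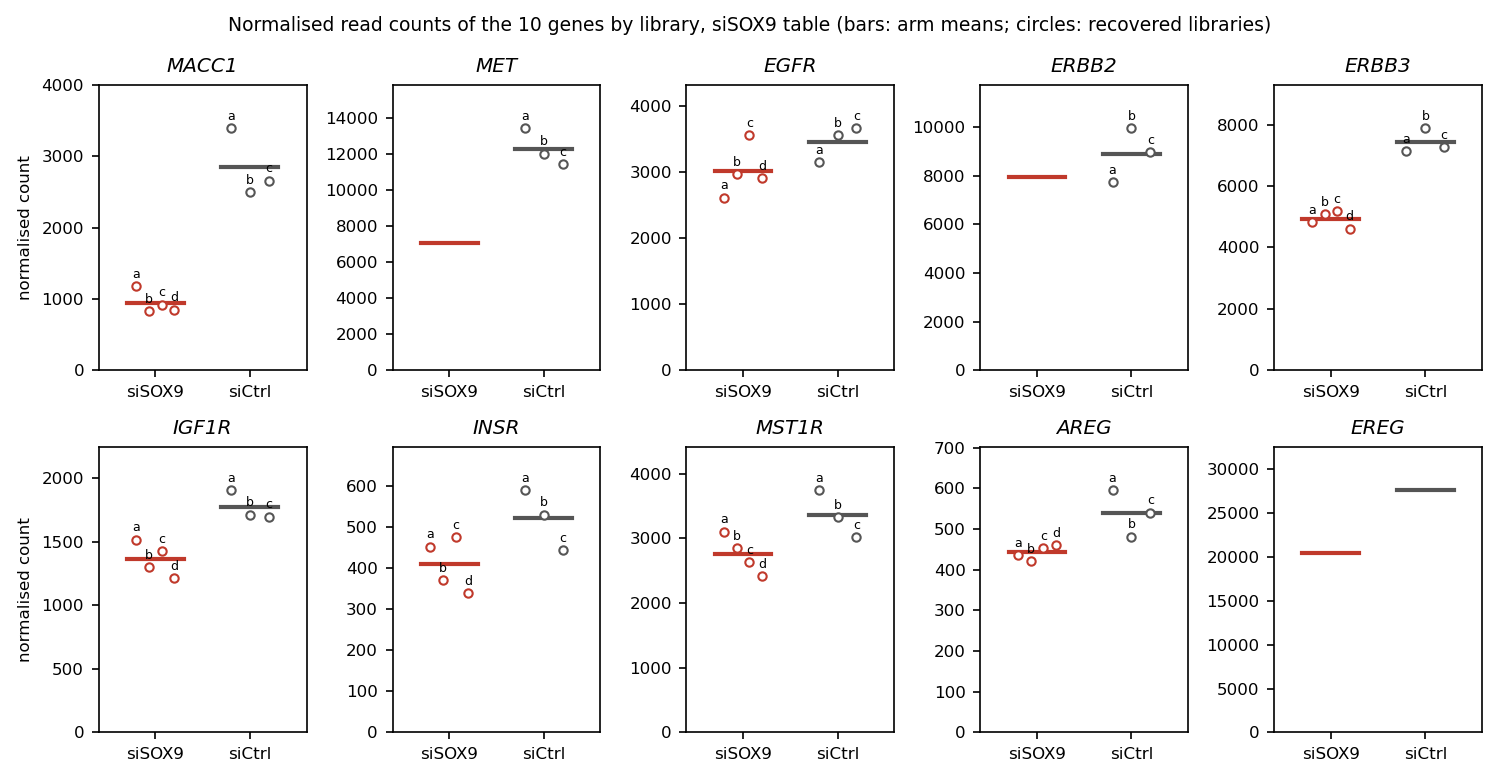
Normalised read counts of the 10 genes in the siSOX9 table, with siSOX9 left of siCtrl in each panel. Bars are the deposited arm means and circles the recovered libraries, lettered by depth; an arm with a bar alone was not recovered. MACC1, ERBB3, IGF1R and AREG have every siSOX9 library below every siCtrl library.

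MET and ERBB3 were the other members called lower with siSOX9 by the authors' deposited table. MET averaged 7082 normalised counts with siSOX9 and 12313 with siCtrl by the authors' deposited table, or -0.80 as log2 fold change at adjusted p = 4.58e-04. Its siCtrl libraries held 13453, 12023 and 11463. No set of reads was accepted for the siSOX9 arm, where the likeliest set, not used further, gave 7775, 6638, 7233 and 6681. Sets were ranked by the usual spread between libraries, so this set does not show the spread of MET itself. ERBB3 held 4826, 5088, 5184 and 4606 normalised counts with siSOX9, against 7141, 7884 and 7255 with siCtrl. The arms did not overlap, with means of 4926 ± 261 (SD, n = 4) with siSOX9 and 7427 ± 400 (SD, n = 3) with siCtrl. The log2 fold change of ERBB3 was -0.59, at adjusted p = 0.0350 by the authors' deposited table.

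The dimer partners of ERBB3 were not called with siSOX9. EGFR held 2615, 2977, 3563 and 2911 normalised counts with siSOX9, against 3156, 3568 and 3672 with siCtrl, and the arms overlapped. ERBB2 averaged 7927 with siSOX9 and 8880.5 with siCtrl by the authors' deposited table, at adjusted p = 1, and its siCtrl libraries spread from 7739 to 9950. The log2 fold changes were -0.20 for EGFR, at adjusted p = 0.957, and -0.16 for ERBB2 by the authors' deposited table.

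The insulin receptor family and MST1R were not called with siSOX9 either. IGF1R held 1519, 1302, 1429 and 1212 normalised counts with siSOX9, against 1906, 1715 and 1700.1 with siCtrl, and the arms did not overlap. Its log2 fold change was -0.38 at adjusted p = 0.510 by the authors' deposited table. INSR held 453, 372, 477 and 340 with siSOX9, against 590, 531 and 444 with siCtrl, and the arms overlapped. MST1R held 3100, 2846, 2633 and 2418 with siSOX9, against 3741, 3331 and 3020 with siCtrl, and library a of siSOX9 lay within the range of the siCtrl libraries. The log2 fold changes were -0.35 for INSR and -0.29 for MST1R, and the adjusted p-values 0.603 for INSR and 0.760 for MST1R, by the authors' deposited table.

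Neither ligand was called with siSOX9. EREG averaged 20432 normalised counts with siSOX9 and 27581 with siCtrl by the authors' deposited table, or -0.43 as log2 fold change at adjusted p = 0.193. AREG held 436, 421, 453 and 460 with siSOX9, against 595, 481 and 540 with siCtrl, and the arms did not overlap. The log2 fold change of AREG was -0.28 by the authors' deposited table, at adjusted p = 0.509. The level of AREG is uncertain, since the gene has a near-identical copy, AREGB, which RefSeq now lists as a synonym. By these counts EREG was the more abundant ligand per kb of exon, a ranking that shares the uncertainty of AREG. It stood at 4423 with siSOX9 and 5971 with siCtrl, and AREG stood at 357 with siSOX9 and 434 with siCtrl.

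All 10 arm means were lower with siSOX9, where 48.5% of all genes averaging at least 50 were lower. The 3 members called lower stand against a background of 2.27% of genes with reads, and 424 of 13649 genes averaging at least 10. The 4 of 7 recovered members without overlap stand against 15.4% of recovered genes averaging at least 10. The members were chosen with this contrast known, so nothing is read from these shares. The median log2 fold change was -0.36 over the members and 0.01 over all genes averaging at least 10.

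With siY14 the 4 libraries of the arm were split for several members. MACC1 held 6577 and 6703 normalised counts in siY14 libraries a and c, and 3379 and 3389 in siY14 libraries b and d, against 6467 and 6390 in the siCtrl libraries. Libraries a and c were thus at 102% and 104% of the siCtrl mean, and b and d at 52.6% and 52.7%. The arm means were 5012 ± 1881 (SD, n = 4) with siY14 and 6428 ± 54.7 (SD, n = 2) with siCtrl, or -0.36 as log2 fold change at adjusted p = 0.661 by the authors' deposited table. The labels give 2 samples for each of 2 siRNAs, but the recovered libraries could not be tied to samples. Whether the split follows the siRNA was not tested.

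ERBB3 and ERBB2 were split in the same libraries. ERBB3 held 6873, 3876, 6954 and 3974 normalised counts in siY14 libraries a to d, against 7763 and 7897 with siCtrl. ERBB2 held 6287, 4018, 6308 and 3946 with siY14, against 6990.3 and 7203 with siCtrl. For both genes every siY14 library was below both siCtrl libraries, with a and c at 87.8% to 88.9% of the siCtrl mean and b and d at 49.5% to 56.6%. The log2 fold changes were -0.53 for ERBB3 and -0.47 for ERBB2, with adjusted p-values of 0.287 for ERBB3 and 0.261 for ERBB2 by the authors' deposited table. EGFR held 5955, 4667, 6004 and 4638 with siY14, against 6158 and 6207 with siCtrl, a smaller split of the same kind, and its log2 fold change was -0.22 at adjusted p = 0.509 by the authors' deposited table.

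**Figure D2:**
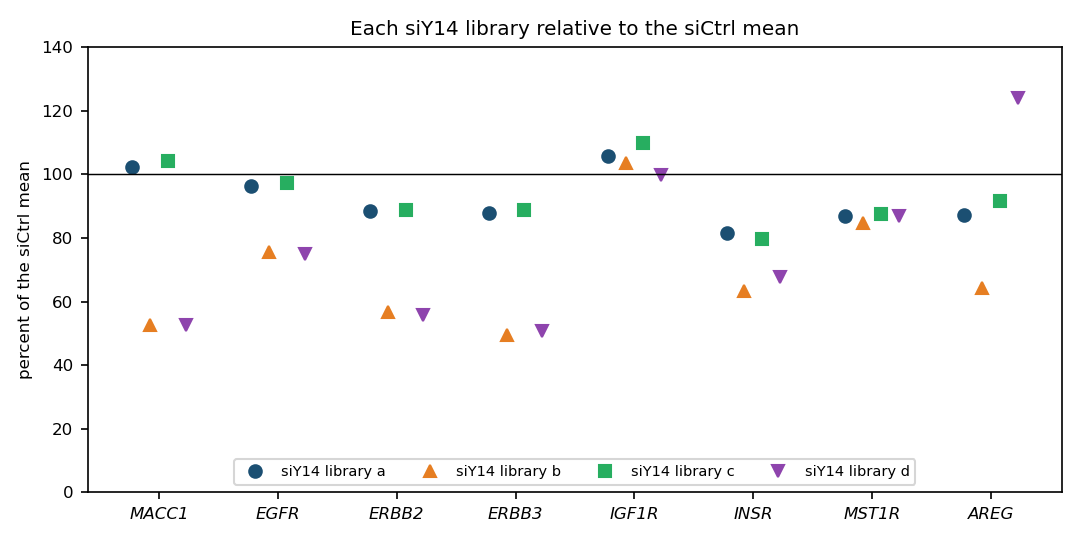
Each siY14 library as a percent of the siCtrl mean, for the 8 genes recovered in both arms. The line marks the siCtrl mean. Libraries b and d lie below a and c for MACC1, EGFR, ERBB2, ERBB3, INSR and, by less, IGF1R, while the 4 libraries lie together for MST1R, at 84.7% to 87.6%.

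MET and EREG were the members called lower with siY14 by the authors' deposited table. MET averaged 15133 normalised counts with siY14 and 21880.0 with siCtrl by the authors' deposited table, or -0.53 as log2 fold change at adjusted p = 0.0492, close to the threshold of 0.05. Its siCtrl libraries held 22134 and 21626. No set of reads was accepted for the siY14 arm of MET, and the likeliest, not used further, gave 17721, 12452, 17778 and 12580. The ranking of sets favours the usual spread between libraries, so this set does not show whether MET was split. EREG averaged 52195 with siY14 and 88185 with siCtrl by the authors' deposited table, or -0.76 as log2 fold change at adjusted p = 4.45e-04. The siCtrl libraries of EREG held 89824 and 86545, and the siY14 arm was not recovered.

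INSR showed a smaller split, and MST1R, IGF1R and AREG did not show that of MACC1. MST1R held 2430.1, 2371, 2450 and 2434 normalised counts with siY14, against 2844 and 2751 with siCtrl, so the siY14 libraries lay within 1.03-fold of each other and below both siCtrl libraries. INSR held 539, 417, 527 and 447 with siY14, against 684 and 637 with siCtrl, again without overlap. The log2 fold changes were -0.45 for INSR and -0.21 for MST1R, and the adjusted p-values 0.0942 for INSR and 0.519 for MST1R, by the authors' deposited table. IGF1R held 2831, 2772, 2938 and 2666 with siY14, against 2630.3 and 2722 with siCtrl, and was the 1 member with a higher arm mean, at a log2 fold change of 0.07 and adjusted p = 0.946 by the authors' deposited table. AREG held 438, 323, 458 and 621 with siY14, against 466 and 537 with siCtrl, and here library d was the highest and b the lowest. The log2 fold change of AREG was -0.12, at adjusted p = 0.901 by the authors' deposited table.

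**Figure D3:**
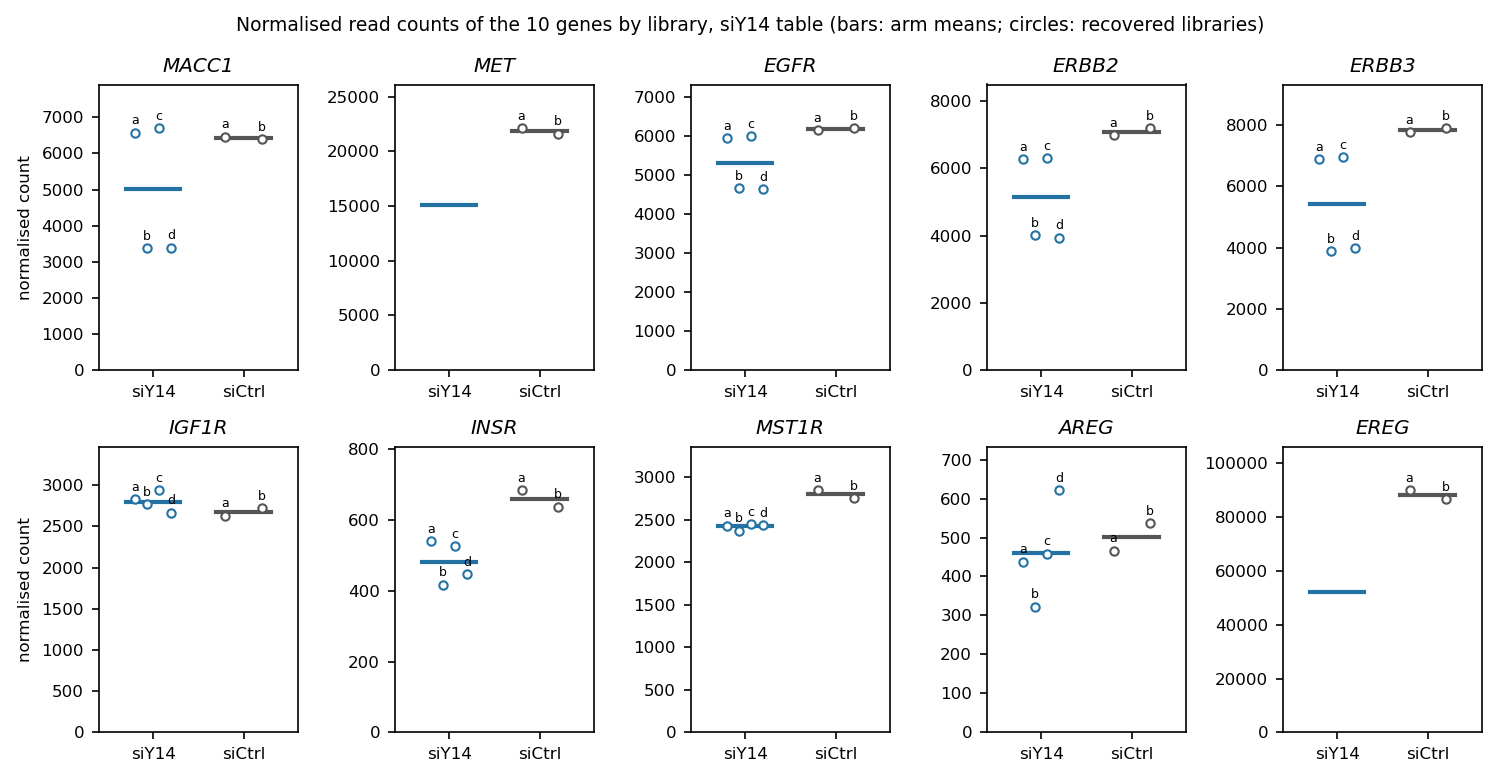
Normalised read counts of the 10 genes in the siY14 table, with siY14 left of siCtrl in each panel. Bars are the deposited arm means and circles the recovered libraries, lettered by depth; an arm with a bar alone was not recovered. MACC1 has libraries a and c at the level of siCtrl and b and d at 3379 and 3389.

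With siY14, 9 of the 10 arm means were lower, against 50.6% of genes averaging at least 50. The 2 members called lower stand against 5.35% of genes with reads, and 942 of 13443 genes averaging at least 10. The 5 of 8 recovered members without overlap were EGFR, ERBB2, ERBB3, INSR and MST1R. They stand against 31.6% of recovered genes averaging at least 10. As above, nothing is read from these shares. The median log2 fold change was -0.41 over the members and 0.00 over all genes averaging at least 10. Since the siY14 libraries formed pairs, a spread over 4 of them does not describe 4 independent samples.

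Set against each other per kb of exon, MET led 58 receptor tyrosine kinases in the siCtrl arm of both tables, at 1841 (siSOX9 table) and 3271 (siY14 table). The exon lengths are from GENCODE 29 and are approximate for these counts. With siSOX9 MET stood at 1059 per kb and ranked 5, below RYK, ERBB2, DDR1 and EPHA2, while with siY14 it stood at 2262 and was still the highest. ERBB2 was at 1400 with siSOX9 and 1568 with siCtrl, and ERBB3 at 663 with siSOX9 and 1000 with siCtrl. MST1R was at 576 with siSOX9 and 705 with siCtrl, and EGFR at 266 with siSOX9 and 306 with siCtrl. IGF1R was at 112 with siSOX9 and 145 with siCtrl, and INSR was the lowest of the 7 receptors at 45.1 with siSOX9 and 57.4 with siCtrl. With siCtrl in the siSOX9 table DDR1 (1727) lay next to MET and RYK (1587) next to ERBB2, each apart by less than the SD of the member over its siCtrl libraries.

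**Figure D4:**
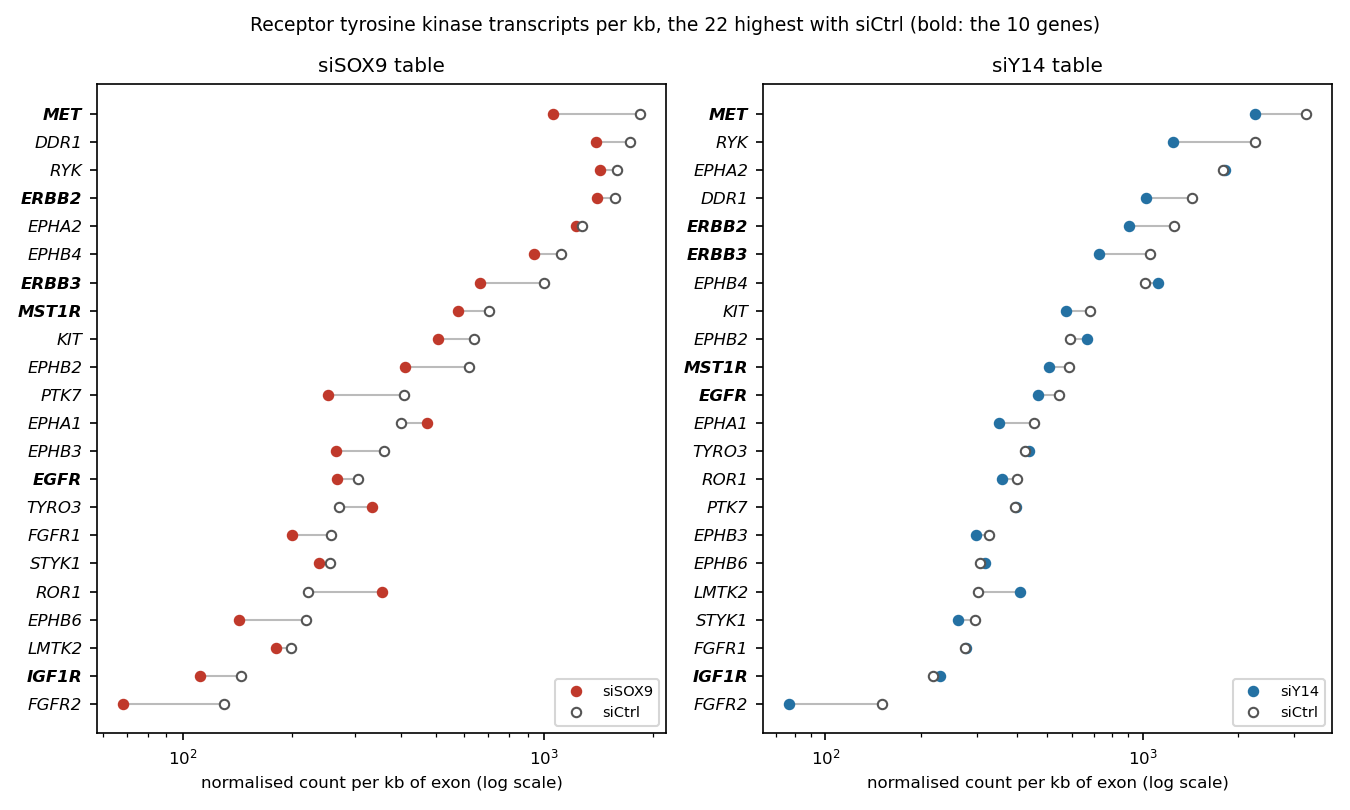
Normalised counts per kb of exon, on a log scale, for the 22 receptor tyrosine kinase genes highest with siCtrl in each table, filled for the knockdown and open for siCtrl. MET is the highest with siCtrl in both tables, and its filled point lies left of its open point in both.

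The other genes of these pathways were counted in lists of genes averaging at least 10. With siSOX9 the background over all such genes was 4.69% called in either direction by the authors' DESeq test, and 16.9% of the recovered ones by limma-voom. Of 13 measured genes of the MET and RON axis, 9 of the EGF ligands and their sheddases, 10 ERBB regulators and 19 adaptors and RAS or PI3K genes, 0 passed the adjusted p threshold of 0.05 of the authors' DESeq test. At an unadjusted p under 0.05 these lists held 0, 1, 0 and 3 genes in that order, and limma-voom on recovered reads called 0 of 8, 2 of 7, 0 of 9 and 3 of 12. Their median log2 fold changes were -0.08, -0.07, -0.17 and -0.01, against 0.01 over all genes averaging at least 10. Of 10 genes of the insulin-like growth factor axis 2 fell, with a list median of 0.11, and limma-voom called 3 of 9. IGFBP2, which binds insulin-like growth factors, held 2208, 2337, 2259 and 2047 normalised counts with siSOX9, against 3766, 3781 and 3554 with siCtrl. GRB10, an adaptor that restrains signalling of both insulin-type receptors, stood at -0.74 as log2 fold change, at adjusted p = 0.0307 by the authors' deposited table. Of 31 other receptor tyrosine kinases 2 rose and 4 fell, with a list median of -0.23, and limma-voom called 11 of 29. FGFR2, a fibroblast growth factor receptor, fell by 0.93, PDGFRB, also a marker of fibroblasts, by 0.88, PTK7, a co-receptor in Wnt signalling, by 0.70 and EPHB2, an ephrin receptor of the crypt, by 0.59 (log2, from the authors' deposited table). MERTK rose by 0.78 and ROR1, a receptor of WNT5A, by 0.69 (log2, from the authors' deposited table).

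With siY14 each of these lists except the insulin-like growth factor axis held genes called by the authors' DESeq test, where 1613 of all 13443 genes averaging at least 10 (12%) were called. By limma-voom 25.1% of the recovered ones were called. That axis had 0 of 9, with 1 at an unadjusted p under 0.05, and limma-voom called 2 of 9. In the other lists limma-voom called 1 of 7 genes of the MET and RON axis, 1 of 7 EGF ligands and sheddases, 4 of 9 ERBB regulators, 4 of 14 adaptors and 4 of 28 other receptors. The median log2 fold changes were -0.02 for the MET and RON axis, -0.38 for the EGF ligands, -0.10 for the ERBB regulators, -0.03 for the insulin-like growth factor axis, -0.25 for the adaptors and -0.13 for the other receptors, against 0.00 over all genes averaging at least 10. In the MET and RON axis 1 of 12 rose and 1 fell. ST14, the protease matriptase that activates pro-hepatocyte growth factor, rose by 0.51 and GAB1, the docking protein of MET, fell by 0.61 (log2, from the authors' deposited table). GAB1 was split in the same libraries as MACC1, at 1499, 959, 1416 and 993 in siY14 libraries a to d, against 1909 and 1817 with siCtrl. Of 9 EGF ligands and sheddases 1 fell, the ligand BTC, which held 78.4, 56.2, 59.1 and 56.8 normalised counts with siY14, against 132 and 136 with siCtrl. Of 10 ERBB regulators 2 rose and 2 fell. LRIG1, a membrane protein that promotes degradation of ERBB receptors, held 204, 292, 207 and 236 normalised counts with siY14, against 100.4 and 96.9 with siCtrl. LRIG2 rose by 0.61, while ERRFI1, a feedback inhibitor of EGFR, fell by 0.64 and SOCS4 by 0.56 (log2, from the authors' deposited table). For LRIG2 siY14 libraries b and d, at 1760 and 1781, lay above a and c, at 1433 and 1445. Of 19 adaptors and RAS or PI3K genes 3 fell, among them the phosphatase gene PTPN11 by 0.81 and the PI3K catalytic subunit PIK3CA by 0.67 (log2, from the authors' deposited table). Of 30 other receptor tyrosine kinases 4 fell, FGFR3 by 1.55, AXL by 1.12, FGFR2 by 0.97 and RYK by 0.86 (log2, from the authors' deposited table).

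Ligand genes of some member receptors were listed at or near 0. A listed 0 need not mean a low level, since RBM8A, which is used in every cell, was listed at 0 as well. HGF, the ligand of MET, was at 0.0699 normalised counts with siSOX9, against 0 with siCtrl, and was listed at 0 in the siY14 table. IGF2 was listed at 0 in both tables, and NRG3, a neuregulin, in the siY14 table. MST1, the ligand of MST1R, averaged 65.9 with siSOX9 and 41.9 with siCtrl by the authors' deposited table, at adjusted p = 1, and it shares sequence with close copies.

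In the plane of the 2 deposited log2 fold changes, over 11563 genes averaging at least 50 in all 4 arms, the 5 genes nearest to MACC1 were SH3TC2, PLA2G2A, LINC00511, TRIM29 and CAPN8. Their Euclidean distances, over 2 comparisons, were 0.116 for SH3TC2, 0.127 for PLA2G2A, 0.142 for LINC00511, 0.155 for TRIM29 and 0.192 for CAPN8. The log2 fold changes of CAPN8, a calpain protease of the gut, were -1.61 with siSOX9 and -0.55 with siY14 by the authors' deposited tables. None of the 9 other members was among these 5. On the siY14 axis MACC1 was placed by an arm mean over split libraries, at 102%, 52.6%, 104% and 52.7% of the siCtrl mean (a to d). That mean describes neither pair of libraries.

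**Figure D5:**
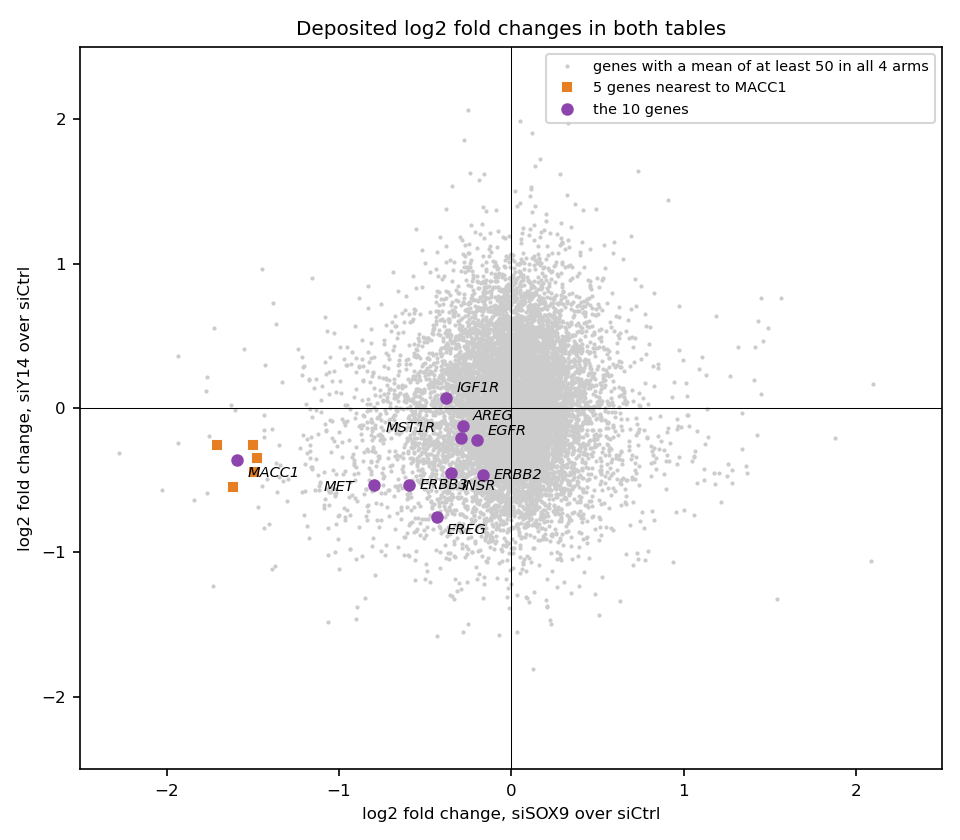
Deposited log2 fold changes with siSOX9 (horizontal) and siY14 (vertical), for genes averaging at least 50 in all 4 arms (grey), the 10 genes (purple) and the 5 genes nearest to MACC1 (orange). MACC1 lies at -1.59 and -0.36, left of the other 9 members.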

How the data were processed

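Stranded libraries of polyadenylated RNA were made, per the labels' protocols, and TopHat2, Bowtie, HISAT2, SAMtools, HTSeq and DESeq with build hg19 are named in the submitters' processing notes. Versions, order and strand settings are not given in the sources used here. As deposited, the tables hold a signal: the authors scaled read counts by library size factors and averaged them per arm. Per the file headers the authors added the ratio of arm means (fold change), the log2 of it, and p-values before and after adjustment.

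The members and gene lists were chosen with earlier results of these data known. All members were named, as was each listed gene past the authors' adjusted p of 0.05 (at most 8 per list and table), each ligand listed at 0, and the 5 genes nearest to MACC1. Some items that this rule names are not reported here. The deposited means carry 15 digits, and candidate sets of whole reads per library were ranked by the usual spread between libraries. A set was accepted where under 0.01 other sets were expected to give the same mean and lie as close to that spread. The usual spread came from genes of the same arm, so with siY14 it held the pairs of libraries. What this does to the SDs and to the splits of the siY14 libraries was not tested. The recovery was also run on simulated reads, whose spread between libraries was drawn from genes already recovered. Errors for genes that depart from that spread were thus not tested. Spreads come from these reads, and limma 3.58.1 (voom, R 4.3.3) was run on recovered genes averaging 10 or more, with Benjamini-Hochberg adjustment.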

Additional observations from a re-analysis of the deposited data

How the results depend on the processing

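The authors' deposited tables gave 650 calls for siSOX9 and 1622 for siY14, 417 and 663 at a threshold of 0.01, and 713 and 1849 when adjusted over genes with a mean of at least 10. On recovered reads limma-voom called 1863 genes for siSOX9 and 2941 for siY14. Leaving out 1 library gave 1191 to 2391 calls for siSOX9, and for siY14 1351 to 3528 without a siY14 library and 1 without either siCtrl library, with 2423 and 2792 genes at an unadjusted p under 0.05. Counts moved by over 1.5 times without siSOX9 library d (1191), without siCtrl library a (1210) or c (1223) of the siSOX9 table, and without siY14 library b (1498) or d (1351). The lone siCtrl library of the siY14 table was assumed to vary like the siY14 libraries. Without the deepest library of each siSOX9-table arm, an alternative chosen after seeing the data, 3502 genes were called. TMM factors, no filter and limma-trend kept both counts within 1.5 times. The cause of these shifts was not tested.

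Of 179 values of the members' log2 fold changes under alternatives, 176 were labelled the same, 3 gained a call and 0 reversed a called member. Most of the 179 belong to members not called in that table, which had no call to reverse. Changes of pseudocount or centring could hardly move genes at these counts. MET in both tables and EREG with siY14 were tried only with pseudocounts and median centring, since their knockdown arms were not recovered, so their calls were not tested by leaving out a library. The 3 that gained a call by limma-voom on all recovered libraries were IGF1R with siSOX9, and INSR and MST1R with siY14. The call of IGF1R was lost in at least 1 fit without 1 library, with limma-voom adjusted p up to 0.157. MST1R lost its call whichever library was left out, and INSR lost it in some fits and kept it in others. Without 1 siCtrl library of the siY14 table nearly all calls over all genes were lost, so those fits could not test INSR or MST1R. Over all fits the limma-voom log2 fold change with siY14 ranged from -0.53 to -0.39 for INSR and from -0.23 to -0.19 for MST1R. With siSOX9 MST1R had a limma-voom adjusted p of 0.0971 on all libraries. It was called in at least 1 fit without 1 library, with limma-voom adjusted p from 0.0223 to 0.356. Leaving out 1 library, the log2 fold change of MACC1 ranged from -1.72 to -1.45 with siSOX9 and from -0.53 to -0.21 with siY14, and that of AREG with siY14 from -0.30 to 0.01. No paired analysis was possible because neither the arm means nor the recovered libraries carry replicate numbers.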
